A study of Mus musculus with 2 samples.

Results

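The hairpins Mir6236, Mir6240, Mir8112, Mir5098, Mir3470b, Mir6516 and Mir6539 are annotated as mouse miRNA genes and were set apart for doubtful miRNA processing. These 7 of 1178 hairpins with a miRNA symbol in GENCODE M21 were chosen from the reads described here, by the precision of their 5′ ends, their spread along the hairpin and their matches to other transcripts. Those measures are therefore given as descriptions and without tests. The data are 1 small RNA library of CD11c+ Ia_low cells and 1 of CD11c+ Ia_high cells. Both came from spleens of C57BL/6J mice, and the labels call the cells dendritic cells and name no treatment. Ia is the mouse class II antigen-presenting molecule: cells were enriched on beads for CD11c, stained with anti-Ia-FITC and sorted by Ia level to a purity over 95%. With 1 library per group there is no replicate check, so no test between the groups was run and every interval covers counting error only.

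A miRNA is cut from a hairpin within a longer transcript by Drosha, and then from the hairpin stem by Dicer. Both cuts fall at fixed places, so most copies of a true miRNA share the same 5′ end, which sets the seed, the stretch that pairs with target mRNAs. Fragments of ribosomal RNA, small nucleolar and Cajal body RNA, mRNA or repeats can fall in the same size range. They are often staggered and can carry bases of the RNA they came from that differ from the annotated hairpin.

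The annotated mature sequences from RefSeq (GRCm38.p6) are shown with the most abundant tag of each hairpin over both libraries, because the place where the tags begin decides whether the annotated miRNA was sequenced at all. Capitals mark bases 2 to 8, the seed that each 5′ end would give. A tag is a distinct sequence of 18 to 34 nt identical to a stretch of the hairpin. Mature sequences are written with U, and tags with T as in the deposited files.
miR-6236 annotated: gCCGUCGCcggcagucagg
Mir6236 main tag: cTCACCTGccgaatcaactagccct
miR-6240 annotated: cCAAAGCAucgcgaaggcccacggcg
Mir6240 main tag: aTTTCTGCccagtgctctg
miR-8112 annotated: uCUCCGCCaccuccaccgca
Mir8112 main tag: tCTCCGCCacctccaccgcagc
miR-5098 annotated: gUUACAUGgugaagcccaguu
Mir5098 main tag: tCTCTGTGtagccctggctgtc
miR-3470b annotated: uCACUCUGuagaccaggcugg
Mir3470b main tag: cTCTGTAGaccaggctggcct
miR-6516-5p annotated: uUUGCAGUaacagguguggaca
Mir6516 main tag: tTTGCAGTaacaggtgtggacatc
miR-6516-3p annotated: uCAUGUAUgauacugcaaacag
Mir6516 3p tag: cATGTATGatactgcaaacagga
Mir6539 main tag: gCACAGTGatgaactctgaggg

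Of the 6 hairpins with a RefSeq mature sequence, only Mir8112 and the 5p side of Mir6516 had a main tag with the annotated seed. The RefSeq sequences used here held none for Mir6539, so its tag could not be compared. For miR-6236, miR-6240, miR-5098 and miR-6516-3p no read identical to the hairpin began at the annotated start in either library. For miR-3470b, 8.44% of hairpin reads in Ia_low and 4.16% in Ia_high began there. The full annotated sequence itself, end to end, was read once among all 7 mature sequences of these 6 hairpins, as 1 read of miR-8112 in Ia_high. Among 161 other hairpins with a RefSeq entry, the median share of reads that began at an annotated start was 97.4%. The 7 main tags had 7 different seeds, so none of them would be grouped by seed.

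The Ia_low library held 13739811 reads and the Ia_high library 16388303, of which 19.6% in Ia_low and 35.9% in Ia_high matched a miRNA hairpin. The 7 hairpins together had 7513 reads in Ia_low and 8317 in Ia_high, which was 0.278% and 0.142% of the hairpin reads of these libraries. Levels are reads per 1000000 hairpin reads (CPM), and the 3 counts that an observed 0 allows correspond to 1.11 CPM in Ia_low and 0.510 CPM in Ia_high. The libraries also held mRNA fragments, counted as distinct fragments of 20 to 30 nt per 1000000 distinct tags. All 5 class II genes of the gate were lower in Ia_low, with a sum of 1256 in Ia_low and 3560 in Ia_high, and Itgax, which encodes CD11c, stood at 104 in Ia_low and 272 in Ia_high. For 4 genes of type 1 conventional dendritic cells the sum was 130 in Ia_low, where Xcr1 and Cadm1 were at 0, and 974 in Ia_high. For 5 genes of Ly6C-low monocytes it was 1982 in Ia_low and 1256 in Ia_high, and 4 of the 5 were higher in Ia_low. The 5 B cell genes summed to 7.91 in Ia_low and 24.5 in Ia_high. The 5 T cell genes summed to 1.32 in Ia_low and 93.6 in Ia_high, of which Cd8a, also made by some dendritic cells, had 1.32 in Ia_low and 66.6 in Ia_high, while Cd3d, Cd3e and Cd3g were at 0 in both. The 4 erythroid genes summed to 0 in Ia_low and 1.69 in Ia_high. Markers of other cell types thus moved with the Ia groups, and their part in the differences below was not tested. Fewer cells of a type and less RNA per cell cannot be told apart in such bulk libraries.

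Start precision, the share of a hairpin's reads at the most common start of their arm, ranged widely among the 7 hairpins. Over both libraries it was 17.2% for Mir6236, 23.8% for Mir6240, 29.1% for Mir5098 and 36.9% for Mir3470b. No other hairpin among the 176 with at least 100 reads was below Mir6236 or Mir6240, 1 was below Mir5098 and 4 were below Mir3470b. Mir8112 was intermediate at 60.6%. Mir6516 reached 86.2% and Mir6539 93.1%, against a median of 98.4% for the 176 other hairpins. For Mir6539, 48 of the other hairpins were less precise, and for Mir6516, 33 were, both values lying near or below the lower quartile of 92.3%. By start precision, which was among the measures used for the choice, the label of doubtful processing was thus not borne out to the same degree for these 2 as for the 4 imprecise ones. Well-known miRNAs of myeloid cells were not all precise either: the share was 99.6% for Mir21a, 99.8% for Mir22, 97.8% for Mir191 and 92.6% for Mir146, but 76.7% for Mir10a and 76.6% for Mir142. The 5 other hairpins with the lowest start precision were Mir8094 at 27.1%, Mir703 at 29.4%, Mir3470a at 30.1%, mmu-mir-3535 at 35.3% and Mir1843b at 39.8%.

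**Figure D1:**
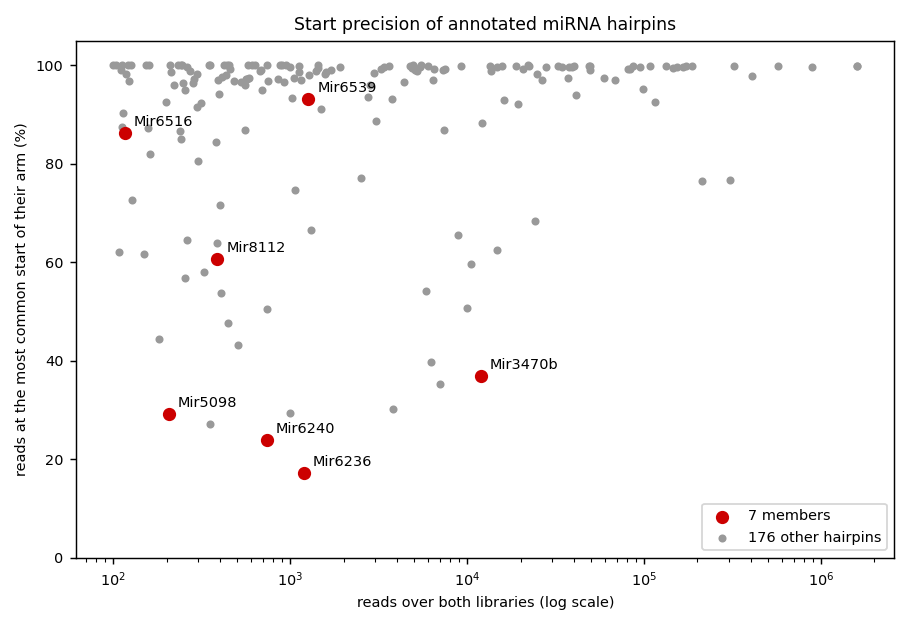
Share of reads at the most common start of their arm (%, vertical axis) against reads over both libraries (log scale, horizontal axis). Red points are the 7 hairpins described here and grey points the 176 other hairpins with at least 100 reads. Mir6236 and Mir6240 lie lowest of all, while Mir6516 and Mir6539 lie at 86.2% and 93.1%.

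Mir6236 (chr9:110281287-110281409, plus strand, GRCm38, 123 nt) overlapped no other annotated gene, and its reads formed a staggered ladder over the 5′ part of the hairpin. There were 1033 reads of 62 distinct tags in Ia_low and 154 reads of 27 distinct tags in Ia_high. They began at 22 positions in Ia_low and 19 in Ia_high, counted from 1 at the 5′ end of the hairpin. The most common start was position 5 with 19.1% of reads in Ia_low (exact Clopper-Pearson 95% interval 16.7 to 21.6) and position 7 with 17.5% in Ia_high (11.9 to 24.5). Tag lengths ran over 19 to 34 nt in Ia_low and 18 to 30 nt in Ia_high. No read lay on the 3p side, where the RefSeq mature sequence begins at position 67, and no identical tag reached beyond position 50.

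As background, Mir6236 and Mir6240 closely resemble stretches of the large ribosomal RNA, the scaffold of the large ribosomal subunit. The 354 rRNA transcripts of the annotation, the longest of 1849 nt, matched no read of either hairpin, nor did any other annotated transcript. A sequence of the large rRNA was not used here, so the source of these reads was not tested. What could be measured is how reads that share at least 18 bases with the hairpin go on beyond the match. These reads were sorted into identical ones, ones that differ only in the last 3 bases, ones that run past an annotated end, and diverging ones with an earlier difference.

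In Mir6236, diverging reads outnumbered identical ones. Of 3026 reads sharing 18 bases in Ia_low, 58.2% diverged, as did 81.7% of 1127 in Ia_high. For the 176 other hairpins the median over both libraries was 0.981%, and for the 6 well-known miRNAs it ran over 0.457% to 1.26%. Mir6236 stood at 64.6% over both libraries. Of the 176, 3 were higher: Mir3470a at 89.5%, Mir30b at 70.3% and Mirlet7c-2 at 68.0%. Mir30b and Mirlet7c-2 had precise starts, at 99.97% and 99.8%, so a high diverging share was not particular to hairpins with imprecise starts. At position 53 every read covering it differed from the hairpin: G53C was carried by 1185 of 1185 reads in Ia_low and 593 of 594 in Ia_high. In such tokens the hairpin's base comes before the position and the read's base after it. The common diverging tags are shown because they place the differences, which stand in capitals.
Mir6236, G53C and A57C: atggatggcgctggagcgtCgggCc
Mir6236, C19G: taacaactcacctgccgaatGaact
Mir6240, G90T: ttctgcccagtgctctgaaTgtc
Mir3470b, T58C: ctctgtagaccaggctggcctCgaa
The Mir6236 tag with G53C and A57C had 95 reads in Ia_low and 194 in Ia_high. The tag with C19G, which begins before the annotated hairpin, had 27 reads in Ia_low and 83 in Ia_high.

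Position 19 of Mir6236 was the only place before position 53 where both bases were common, and the libraries differed there. G in place of C was read in 34.8% of 1524 reads in Ia_low (32.4 to 37.3) and 71.4% of 454 reads in Ia_high (67.0 to 75.5). Among tags that began before the hairpin, G made up 67.7% in Ia_low and 95.3% in Ia_high. Among tags that began inside the hairpin, G made up 18.0% in Ia_low (15.6 to 20.5) and 25.2% in Ia_high (18.5 to 32.8), where the intervals overlap. No base other than C or G was seen, with 0 of 1524 reads in Ia_low and 0 of 454 in Ia_high, which allows up to 0.242% and 0.809% (exact upper bounds). Tags that began before the hairpin made up 517 of the 1524 reads in Ia_low and 299 of the 454 in Ia_high.

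**Figure D2:**
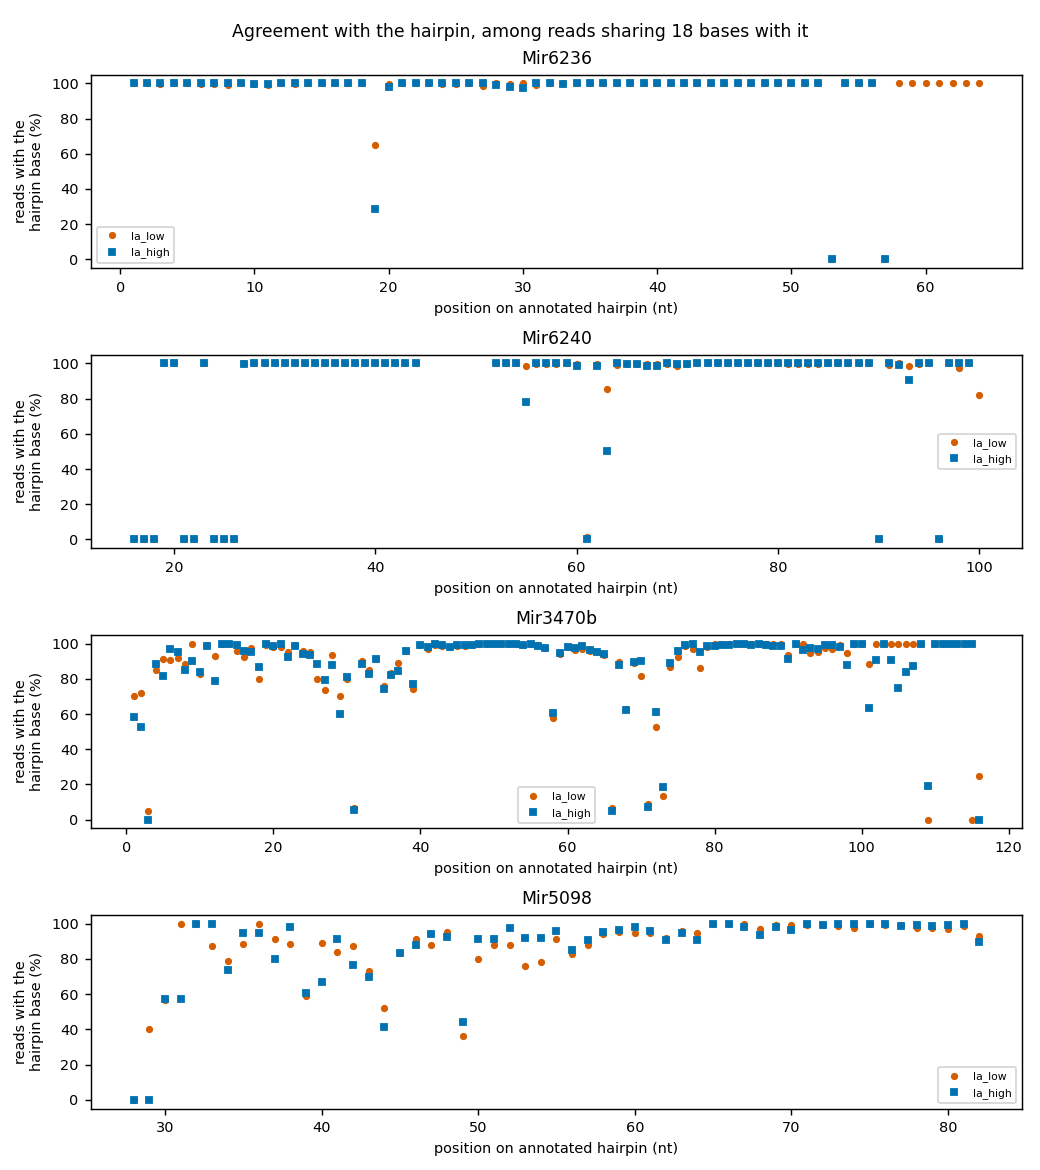
Share of reads with the hairpin's base (%, vertical axis) at each position of the hairpin (nt, horizontal axis), among reads sharing at least 18 bases with it and leaving out the last 3 bases of each read, for positions with at least 20 reads over both libraries. Orange circles are Ia_low and blue squares Ia_high. In Mir6236 the share drops at positions 19, 53 and 57, in Mir6240 at 8 positions between 16 and 26 and at 61, 63, 90 and 96, and in Mir3470b and Mir5098 at many positions.

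Mir6240 (chr5:114851948-114852064, plus strand, GRCm38, 117 nt) also overlapped no other annotated gene. Its reads numbered 401 in Ia_low, all on the 3p side, and 334 in Ia_high, of which 47 were on the 5p side. The 3p tags crowded between positions 62 and 89. Reads that crossed those borders carried other bases: T61G was in 1131 of 1157 reads in Ia_low and 338 of 343 in Ia_high, and G90T in 1869 of 1870 in Ia_low and 701 of 704 in Ia_high. T96A was in all 488 reads in Ia_low and all 63 in Ia_high. On the 5p side the reads differed from the hairpin at 8 positions between 16 and 26, where no read had the hairpin's base. Position 26 is the annotated start of miR-6240, and C26A was in all 491 reads covering it in Ia_low and all 415 in Ia_high. Position 63 was mixed, with the hairpin's base in 1488 of 1738 reads in Ia_low and 269 of 538 in Ia_high. Diverging reads were 74.0% of 4924 reads sharing 18 bases in Ia_low and 47.6% of 3378 in Ia_high. The most common start was position 70 in Ia_low, with 17.7% of reads, and position 69 in Ia_high, with 31.1%. The predicted fold of Mir6240 was the weakest of the 7, at -0.211 kcal/mol per base by RNAfold, and 175 of the 176 other hairpins were predicted to be more stable. Mir6236 stood at -0.369 and the median of the other hairpins at -0.433.

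**Figure D3:**
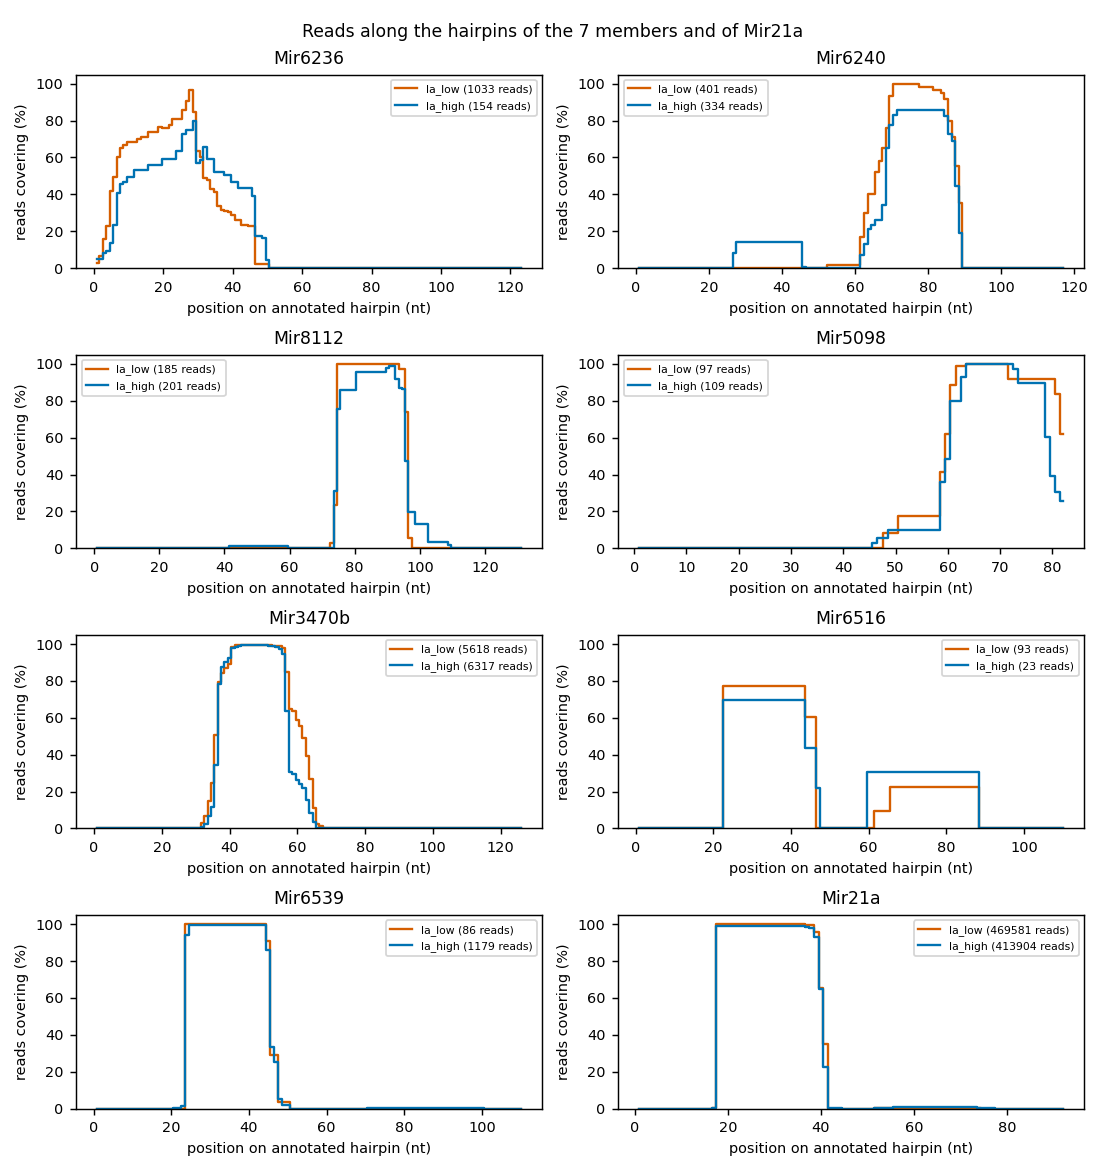
Share of reads covering each position (%, vertical axis) along the annotated hairpin (nt, horizontal axis) for the 7 hairpins and, for comparison, Mir21a. Orange lines are Ia_low and blue lines Ia_high. Mir6539 and Mir21a have steep shared 5′ edges, Mir6516 has a block on each arm, and Mir6236 rises in many small steps.

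Mir3470b (chr16:44013852-44013977, plus strand, GRCm38, 126 nt) had the most reads of the 7, with 5618 in Ia_low and 6317 in Ia_high. It lies within the gene Gramd1c, on the opposite strand. As background, Mir3470b and Mir5098 lie in copies of B1, a short interspersed repeat found in very many mouse transcripts. Every Mir3470b read was identical to at least 1 other annotated transcript, and the tags occurred in 1725 other genes in all, with a median per read of 145 genes in Ia_low and 580 in Ia_high. A read of Mir3470b therefore cannot be assigned to this locus. Among the 176 other hairpins, the median share of reads matching another transcript was 0% and the upper quartile 100%. Mir21a, Mir191 and Mir22 were at 100%. The median number of other genes per read, however, was 2 at the 95th percentile of those hairpins. Starts were centred on position 37, which held 1622 reads in Ia_low and 2773 in Ia_high, with 1447 in Ia_low and 1469 in Ia_high at position 36. Around the hairpin, 71.1% of 38675 reads sharing 18 bases diverged in Ia_low and 60.1% of 24191 in Ia_high. The differences stood at single positions, with T58C in 39.6% of the reads covering that position over both libraries, A66G in 77.6% and C31A in 88.4%. Next to position 31, the hairpin's base was read in 80.2% at position 30 and 89.6% at position 32. The T58C tag shown above had 536 reads in Ia_low and 314 in Ia_high, against 412 in Ia_low and 1027 in Ia_high for the main identical tag.

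Mir5098 (chr5:77272757-77272838, plus strand, GRCm38, 82 nt) lies in an intron of Rest, which encodes a repressor of neuronal genes. It had 97 reads in Ia_low and 109 in Ia_high, every one also identical to other transcripts, of 762 genes in all. The reads piled up against the 3′ end of the annotated hairpin, opposite the RefSeq mature sequence at positions 11 to 31. Of reads sharing 18 bases, 64.8% of 3669 in Ia_low and 41.5% of 1229 in Ia_high ran on past the annotated end without an earlier difference. Identical reads were 2.64% of them in Ia_low and 8.87% in Ia_high. The most common start, position 61, held 26.8% of identical reads in Ia_low and 31.2% in Ia_high.

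Mir8112 (chr6:71271671-71271801, plus strand, GRCm38, 131 nt) overlaps an exon of Krcc1, in its untranslated region, and the gene Smyd1 on the other strand. Its reads numbered 185 in Ia_low and 201 in Ia_high, and all of them were also identical to Krcc1 mRNA. All reads of Mir21a, Mir191 and Mir22 matched another transcript too, so this alone did not set Mir8112 apart. The annotated start, position 75, held 142 reads in Ia_low (76.8%) and 90 in Ia_high (44.8%), with 38 reads in Ia_low and 62 in Ia_high 1 base earlier. In Ia_high a further 21 reads began at position 76 and 19 at position 81, where Ia_low had none. All Mir8112 reads in Ia_low and 83.1% in Ia_high were 21 to 23 nt long. On the Krcc1 transcript of 1687 nt, 274 reads in Ia_low and 340 in Ia_high matched, of which 67.5% in Ia_low and 59.1% in Ia_high lay in the hairpin, although the hairpin makes up 7.41% of that transcript. Its predicted fold was the most stable of the 7, at -0.546 kcal/mol per base.

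Mir6516 (chr11:117077348-117077457, plus strand, GRCm38, 110 nt) overlaps an exon of the long noncoding RNA Snhg20 and Gm26083, annotated as a small Cajal body RNA of 193 nt. Such RNAs guide chemical modification of spliceosomal RNAs. Of 93 reads in Ia_low and 23 in Ia_high, 72 in Ia_low and 16 in Ia_high began at position 23, the annotated start of miR-6516-5p, and every other read was on the 3p side. The 5p reads were 21 or 24 nt long in Ia_low and 21, 24 or 25 nt in Ia_high, and none had the annotated length of 22 nt. All 3p reads, 21 in Ia_low and 7 in Ia_high, ended at position 88, which is the last base of Gm26083, and they began at position 60, 62 or 66 and never at the annotated position 65. Outside the hairpin, Gm26083 had a further cluster at its own 5′ end, with 146 reads in Ia_low and 63 in Ia_high that began at its position 1. The hairpin held 38.9% of Gm26083 reads in Ia_low and 25.3% in Ia_high, both below the 45.6% of that RNA's length that it overlaps. The Mir6516 reads therefore had a precise 5p start together with a 3p end set at the end of the host RNA.

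Mir6539 (chr14:67859636-67859745, minus strand, GRCm38, 110 nt) lies in an intron of Dock5, a guanine nucleotide exchange factor for Rac. It had 86 reads in Ia_low and 1179 in Ia_high. All 86 in Ia_low (100%, interval 95.8 to 100) and 1089 in Ia_high (92.4%) began at position 24. Its tags matched no other annotated transcript, and only 4 of 1301 reads sharing 18 bases diverged. The 22 nt tag shown above was the most abundant in both libraries, with 53 reads in Ia_low and 579 in Ia_high, and the tags ended at 7 different positions of the 5p side. The 3p side had 0 reads in Ia_low and 3 in Ia_high, so both arms were read in Ia_high alone and at a level that a count of 0 also allows. Its predicted fold, -0.311 kcal/mol per base, was less stable than that of 166 of the 176 other hairpins.

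Read lengths did not follow start precision throughout, and they differed between the libraries. The share of reads of 21 to 23 nt, the usual length of Dicer products, was 20.6% in Ia_low and 33.8% in Ia_high for Mir6236. For Mir6240 it was 38.4% in Ia_low and 22.2% in Ia_high, and for Mir3470b 32.9% in Ia_low and 41.8% in Ia_high. For Mir5098, with imprecise starts, it was 70.1% in Ia_low and 23.9% in Ia_high, and for Mir6516, with more precise ones, 30.1% in Ia_low and 26.1% in Ia_high. Mir8112 had 100% in Ia_low and 83.1% in Ia_high. Mir6539 had 70.9% in Ia_low and 74.4% in Ia_high, against the 87.4% in Ia_low and 87.8% in Ia_high of all hairpin reads. In the 4 hairpins Mir6236, Mir6240, Mir5098 and Mir3470b the median length was greater in Ia_low. It was 25 nt in Ia_low and 23 nt in Ia_high for Mir6236, and 22 and 19 nt in these libraries for Mir6240. For Mir5098 it was 23 nt in Ia_low and 20 nt in Ia_high, and for Mir3470b 25 nt in Ia_low and 21 nt in Ia_high. Mir8112 and Mir6539 had a median of 22 nt in both libraries, as did all hairpin reads. Mir6516 went the other way, with 24 nt in Ia_low and 25 nt in Ia_high. Reads that matched no hairpin had a median of 26 nt in Ia_low and 24 nt in Ia_high, the same direction as in the 4 hairpins. Among the well-known miRNAs, Mir142 had a median of 21 nt in Ia_low and 20 nt in Ia_high. The remaining ones, Mir21a included, had the same median in both libraries. In Mir21a, however, 34.7% of reads in Ia_low and 22.7% in Ia_high were 24 nt long. The direction was therefore not particular to reads outside miRNAs.

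**Figure D4:**
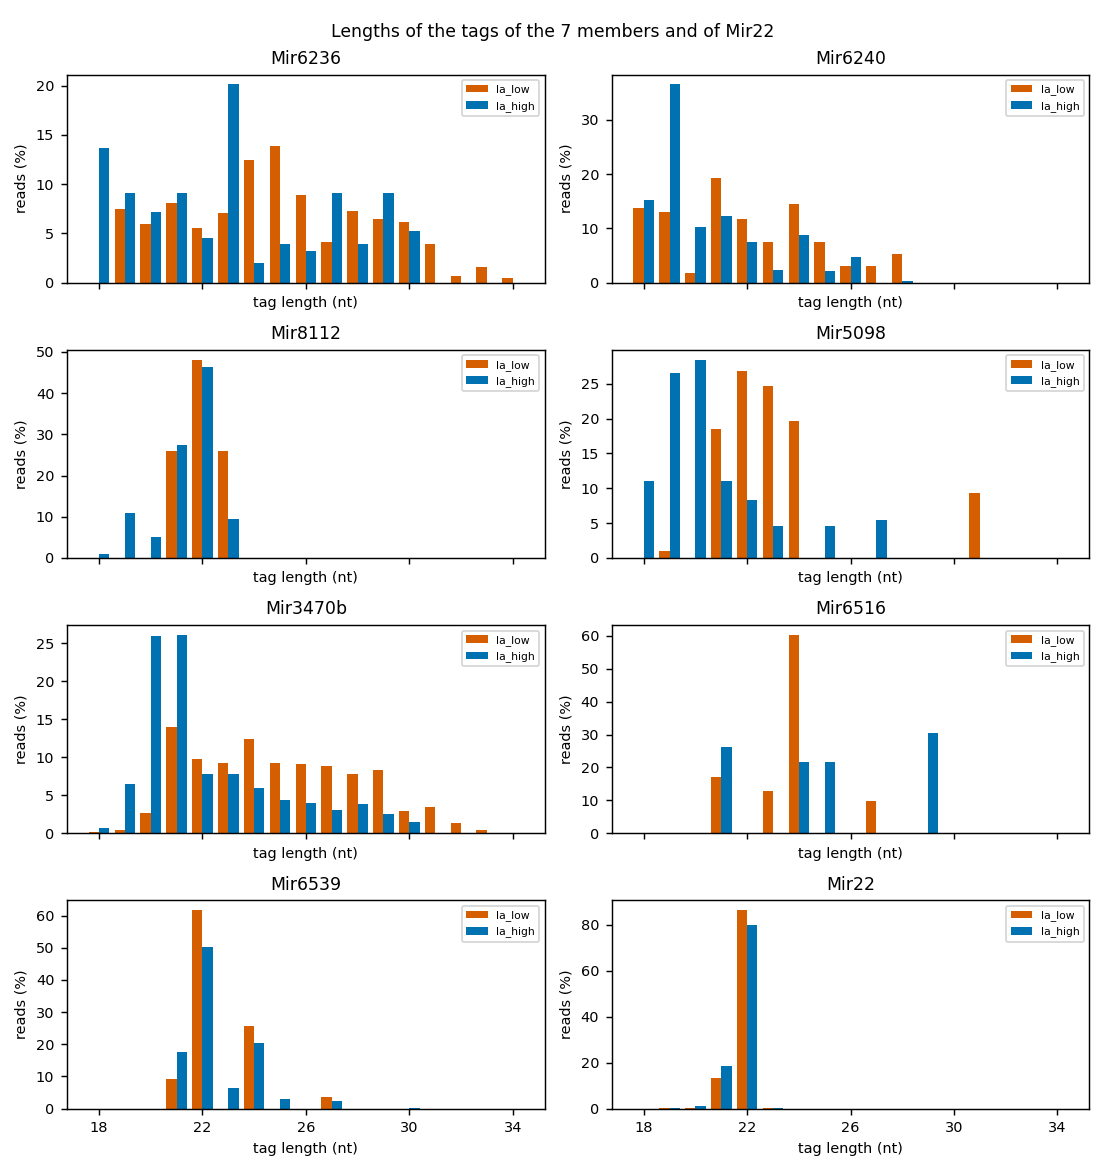
Share of reads (%, vertical axis) by tag length (nt, horizontal axis) for the 7 hairpins and, for comparison, Mir22. Orange bars are Ia_low and blue bars Ia_high. Mir22, Mir8112 and Mir6539 peak at 22 nt in both libraries, while Mir6236, Mir6240, Mir5098 and Mir3470b are spread over many lengths and lie longer in Ia_low.

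The levels of the 7 hairpins were then compared between the libraries. A hairpin was called higher or lower when its CPM differed at least 2-fold, its mean was at least 10 CPM and the exact counting interval of the ratio excluded 1. Of the 7, 4 were higher in Ia_low, 1 was lower and 2 were neither, against 8.15% of 184 tested hairpins called higher and 32.1% called lower. The median log2 ratio of the 184 was -0.39. With all reads of a library as the total, each log2 ratio is 0.87 lower, and after subtraction of the median it is 0.39 higher. Both are named where they change a call. Because amplified copies are not independent molecules, a wider interval was computed from reads divided by 9 in Ia_low and by 4 in Ia_high. These were the most common numbers of reads per tag, leaving out tags read once.

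Mir6236 stood at 383 CPM in Ia_low and 26.2 CPM in Ia_high, a ratio of 14.6 (12.3 to 17.4, wider interval 10.2 to 22). The diverging reads differed less, with 653 CPM in Ia_low and 157 CPM in Ia_high, a ratio of 4.17 (3.84 to 4.52). Of these, 1185 of 1762 reads in Ia_low and 594 of 921 in Ia_high covered position 53, which no identical tag reached. Identity and position along the hairpin were therefore not separated by this contrast. Among tags that began inside the hairpin and covered position 19, C was read in 826 reads in Ia_low and 116 in Ia_high. There, G was read in 181 reads in Ia_low and 39 in Ia_high. Mir6516 stood at 34.5 CPM in Ia_low and 3.91 CPM in Ia_high, a ratio of 8.81 (5.53 to 14.6, wider interval 2.69 to 27.3), resting on 93 and 23 reads of 4 distinct tags in each library. Both hairpins remained more than 2-fold higher in Ia_low when scaled to all reads, at 8.0 for Mir6236 and 4.82 for Mir6516. Counted by distinct tags, Mir6236 was still called, at a log2 ratio of 2.13 against 3.87 by reads. Mir6516 was then at 0.93 against 3.14 by reads and was no longer called.

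The other 4 hairpins that were not lower had ratios near the threshold. Mir6240 stood at 149 CPM in Ia_low and 56.8 CPM in Ia_high, a ratio of 2.61 (2.26 to 3.03), and its diverging reads had a ratio of 4.94 while reads differing only in the last 3 bases had 1.33. Mir8112 stood at 68.5 CPM in Ia_low and 34.2 CPM in Ia_high, a ratio of 2.0, just past the threshold (1.63 to 2.46). Scaled to all reads these were 1.43 for Mir6240 and 1.10 for Mir8112, and neither was called. Mir5098 stood at 35.9 CPM in Ia_low and 18.5 CPM in Ia_high, and Mir3470b at 2082 CPM in Ia_low and 1075 CPM in Ia_high, both with a ratio of 1.94. Scaled to all reads both were at 1.06, while centring put both past the threshold. With tags that differ only in the last 3 bases added, Mir3470b was called, at a log2 ratio of 1.24, and Mir6240 was not, at 0.56. Counted by distinct tags, Mir8112 was at -0.45 and Mir6240 at 0.44, and neither was called. The reads running past the end of Mir5098 had a ratio of 10.1 and the diverging reads of Mir3470b one of 4.12. For Mir5098 and Mir3470b the identical reads thus had a lower ratio than these related reads. In Mir6236 the identical reads had a higher ratio than the diverging ones. Reads running past an end of Mir6236 without an earlier difference, 190 in Ia_low and 20 in Ia_high, had a ratio of 20.7. Its interval overlapped that of the identical reads. Most tags that began before this hairpin were instead counted as diverging, because they carried G at position 19. These were 350 of 517 reads in Ia_low and 285 of 299 in Ia_high. The ratio of 20.7 therefore covers only part of the Mir6236 reads that crossed an end, and gives no comparison of direction with Mir5098.

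Mir6539 was the hairpin that was lower, at 31.9 CPM in Ia_low and 201 CPM in Ia_high, 6.30-fold lower in Ia_low (5.05 to 7.93, wider interval 3.23 to 12.7). Counted by distinct tags, of which Ia_low had 4 and Ia_high 13, its log2 ratio was -0.77 against -2.65 by reads, and it was no longer called. Its host Dock5 was set beside it per 1000000 reads of all kinds, from mRNA fragments outside the hairpin. Dock5 had 64.8 in Ia_low and 82.3 in Ia_high, a ratio of 0.788 (0.723 to 0.858), and Mir6539 had 6.26 in Ia_low and 71.9 in Ia_high, a ratio of 0.0870 (0.0691 to 0.108). By reads, the hairpin and the spliced host fragments therefore differed by unlike amounts between the libraries. Counted as distinct sequences the contrast was much smaller: Dock5 had 83 fragments in Ia_low and 234 in Ia_high, beside 4 and 13 tags of Mir6539. For Mir8112 the same measure of Krcc1 outside the hairpin was 5.82 in Ia_low and 7.69 in Ia_high, a ratio of 0.757 (0.565 to 1.01), and for Mir8112 itself 13.5 in Ia_low and 12.3 in Ia_high, a ratio of 1.10 (0.894 to 1.35). The intervals of Krcc1 and Mir8112 overlap.

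**Figure D5:**
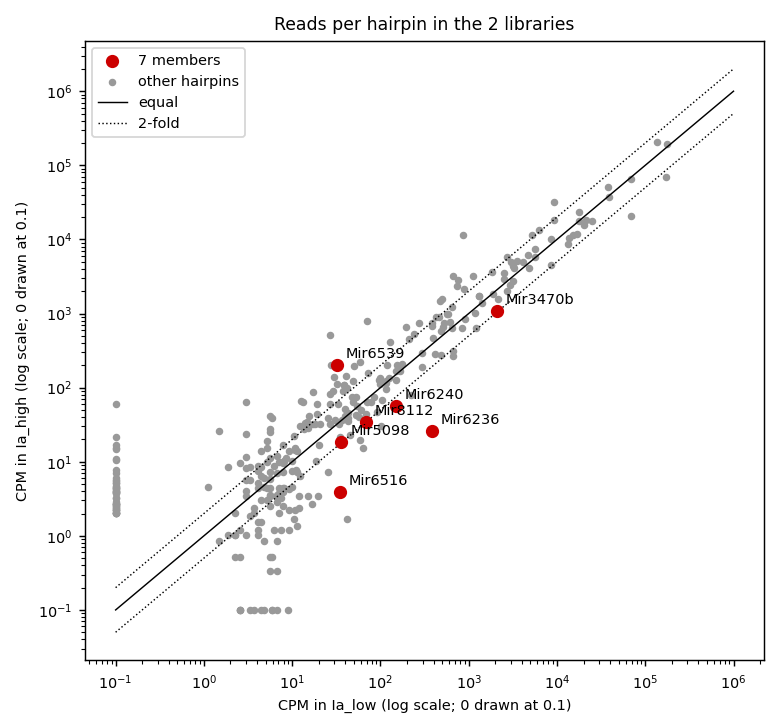
Reads per 1000000 hairpin reads (CPM, log scales) in Ia_low (horizontal axis) and Ia_high (vertical axis). Red points are the 7 hairpins, grey points other hairpins, the solid line marks equal levels and dotted lines 2-fold. Mir6236 and Mir6516 lie furthest to the Ia_low side of the 7, and Mir6539 alone lies beyond the dotted line on the Ia_high side.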

How the data were processed

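The deposited files hold, per library, the length, read count and sequence of each distinct tag, and these counts were left unscaled by the authors. Per the labels' protocols, RNA under 30 bases was gel-purified, adaptor-ligated, amplified for 12 cycles and sequenced on a Solexa instrument. For adaptor trimming, aligner and genome build, the authors' choices were not given in the sources used here. No molecular identifiers are named.

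Tags were matched without mismatch to GENCODE M21 (GRCm38) with Python 3.11.15, and arms were split at the hairpin's middle. Folds came from RNAfold 2.7.2 and intervals from SciPy 1.17.1. Other hairpins needed 100 reads, and hairpins sharing their main tag were merged. No genome sequence was used here. The text names all 7 hairpins, the transcripts sharing their reads, 6 well-known miRNAs (Mir146a is Mir146 in the annotation) and the 5 other hairpins of lowest start precision. Members and lists were chosen with earlier results of these data known. Alternatives covered scaling, distinct tags, tag length, 3′ trimming and thresholds. On simulated counts for 221 hairpins, the rule called 100% of 4-fold changes, 47.9% of 2-fold changes and 0% of unchanged hairpins. A true 2-fold change lies on the rule's threshold, so such changes fall on either side of it. These rates cover counting error only, because without replicate libraries the variation between libraries could not be measured. They therefore do not give the rate of false calls in these libraries.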

Additional observations from a re-analysis of the deposited data

Results flagged for a closer look

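Reads from the strand opposite to the hairpins lie outside the comparisons above. Mir3470b had 18 such reads in Ia_low, and 1 in Ia_high. Mir5098 had 0 in Ia_low and 10 in Ia_high. Both 18 and 10 are above the 3 counts that an observed 0 allows, and the other 5 hairpins had 0 in both libraries. Since the sequences of both hairpins occur in many genes, these reads cannot be assigned to the antisense strand of either locus.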

How the results depend on the processing

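No paired analysis was possible because each group has 1 library. Of the 7 hairpins, 5 were past the 2-fold rule. Scaling to all reads left 3, counting distinct tags left 1 (Mir6236), and tags in no other transcript gave 3 of the 3 that had any (Mir8112, Mir5098, Mir3470b and Mir6516 had none). Centring gave 7, and tags of 18 to 30 nt, trimmed 3′ ends and the widened interval, chosen after seeing the data, gave 5 each, but with trimmed 3′ ends Mir3470b, at a log2 ratio of 1.24, took the place of Mir6240. With distinct tags the log2 ratio of Mir8112 was -0.45, on the other side of 0, and with trimmed 3′ ends that of Mir6240 was 0.56, under 2-fold. The cause was not tested.

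The median start precision of the 7, 36.9%, was 70.4% with starts within 1 nt, and 23.8% both with distinct tags and with tags in no other transcript. The median covered share of the hairpin was 48.7%, and 24.6% counting positions at 10% of the highest or more. For the 176 other hairpins the median covered share was 56.3%, and of the 7 only Mir3470b, at 74.6%, lay above it. The median share of 21 to 23 nt was 37.6%, and 33.3% over distinct tags. Of the tested hairpins, 15 were higher and 59 lower. A mean of 1 CPM or more gave 54 and 102, at least 1 read in each library gave 43 and 66, all reads gave 5 and 112, and 4-fold gave 5 and 19. Among 104 values for single hairpins under alternatives, 59 moved within their counting error, 44 moved further and 1 changed sign. Mir6516, Mir5098 and Mir8112, with the fewest reads, are limited most by depth.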
